A study of Mus musculus with 8 samples.

Results

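Cells that carry F3 and Gdf10 transcripts were studied in the inguinal white fat of mice, within its stromal vascular fraction, by 8 droplet-based single-cell libraries. A barcode was kept with 700 to 30000 unique molecular identifiers (UMIs), 200 to 8000 genes and at most 10% mitochondrial UMIs. A kept barcode was called an F3+ Gdf10+ progenitor when its UMIs of Pdgfra, Col1a1, Col3a1 and Dcn summed to at least 10, those of Gdf10 and F3 to at least 3 and those of Pi16 and Dpp4 to at most 1, with no UMI of Ptprc, Pecam1 or Cd79a. The cells were thus chosen by their measured counts of these 11 genes. This rule took 3011 of 36370 cells, and 3011 of the 9541 cells that passed the stromal conditions alone. The 2 groups were C57BL/6 mice with free access to food (Ad-Lib, libraries 1, 3, 5 and 7) and C57BL/6 mice fed in 2 nightly meals (TAN, libraries 2, 4, 6 and 8). The labels give an age of 8 weeks for every sample and name no genetic change, whereas the study describes older male mice on regular chow for this experiment, so the age is uncertain. The libraries held 25320800 to 37140950 UMIs, and 3717 to 5654 cells of each were kept.

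The stroma of subcutaneous fat holds fibroblast-like progenitors of adipocytes. Dpp4+ Pi16+ cells of the interstitium are known as an early, multipotent pool, and Icam1+ cells as preadipocytes committed to the fat lineage. Cells with CD142, the tissue factor protein that F3 encodes and that starts the clotting cascade, have been described in mouse subcutaneous fat as regulators that hold back the adipocyte differentiation of their neighbours. Gdf10 encodes a secreted protein of the TGF-beta family (BMP3b) that is a usual marker of the same cells. To set the F3+ Gdf10+ cells beside those neighbours, cells of the same stromal conditions were gated as Dpp4+ Pi16+ (Pi16 and Dpp4 UMIs of at least 3, Gdf10 and F3 of at most 1; 3225 cells) or as Icam1+ Col15a1+ (Icam1 and Col15a1 of at least 3, both other pairs at most 1; 835 cells). B-like droplets were those with Cd79a and Cd79b UMIs of at least 3 and stromal UMIs of at most 1 (2788 cells). They show the level of RNA that floats between cells, since B cells should lack stromal transcripts. Their levels are unweighted means over libraries, and Ad-Lib 1, 5 and 7 held only 30, 79 and 23 of them.

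The pair of marker genes did not always travel together. Of the 3011 cells, 1854 carried UMIs of both genes, 682 of Gdf10 alone and 475 of F3 alone, so Gdf10 was seen in 84.2% and F3 in 77.3% of them, against 0.215% for each gene in B-like droplets. The cells were deep, with a median of 8825 to 11660 UMIs per library, while B-like droplets had medians of 3204 to 9236. Gdf10 (chr14:33923587-33937983, plus strand in GRCm38) summed to 309, 351, 514 and 545 CPM in Ad-Lib 1, 3, 5 and 7 against 313, 347, 619 and 528 CPM in TAN 2, 4, 6 and 8, where CPM is the gene's UMIs scaled to a total of 1000000 over the cells' summed UMIs. F3 (chr3:121723537-121735048, plus strand) stood at 488, 488, 346 and 178 CPM in Ad-Lib against 635, 491, 233 and 316 CPM in TAN, in the same order of libraries. The feeding groups overlapped for both genes, but the libraries numbered 1 to 4 stood apart from those numbered 5 to 8, lower for Gdf10 (309 to 351 against 514 to 619 CPM) and higher for F3 (488 to 635 against 178 to 346 CPM). Each of these sets holds 2 libraries of each feeding group, and the labels name no batch for them. With the sets as a term in the fit, all 122 genes called for feeding further on were called again. These levels follow from the rule that chose the cells and are given as a description.

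The cut at 3 UMIs runs through a continuous range. Among stromal cells with at most 1 Pi16 or Dpp4 UMI, 972 had no Gdf10 or F3 UMI, 751 had 1, 618 had 2, 530 had 3, 400 had 4 and 1469 had over 6. A further 496 cells reached 3 UMIs but held more Pi16 or Dpp4 than allowed. Cells with exactly 3 UMIs had summed levels of 129 CPM for Fmo2 and 156 CPM for C7, and cells with exactly 2 had 128 and 162 CPM, so neither stepped at the cut, while cells with none had 93.8 and 98.5 CPM. Clec11a and Mgp were no higher inside the cut, with 5.09 and 143 CPM at 3 UMIs, 7.99 and 164 CPM at 2, and 6.56 and 162 CPM at none. Apod ran the other way, with 297 CPM at 3 UMIs, 419 CPM at 2 and 588.5 CPM at none.

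The markers that were not used to choose the cells were checked next. Fmo2, a flavin monooxygenase, was seen in 52.9% of F3+ Gdf10+ cells, 8.22% of Dpp4+ Pi16+ cells, 29.2% of Icam1+ Col15a1+ cells and 0.753% of B-like droplets. C7, a component of the complement membrane attack complex, was seen in 57.0%, 39.3%, 29.1% and 0.287% of the same classes. Clec11a, a secreted lectin-like growth factor, was rarer, at 10.96%, 1.27%, 5.03% and 1.26%. Each class was summed within each library, and the sums were tested between classes with edgeR (quasi-likelihood, library as a block). A gene was called at 1.5-fold or more and a p, adjusted by Benjamini-Hochberg, under 0.05. Fmo2 and C7 were called higher in F3+ Gdf10+ cells than in both neighbours. Clec11a, seen in few cells of either neighbour, may have passed edgeR's filter on low counts only through the F3+ Gdf10+ cells. It is given as shares of cells without a call. Apod, a lipocalin that carries lipids, was higher than in Dpp4+ Pi16+ cells but not told apart from Icam1+ Col15a1+ cells (479 ± 109.9 against 507 ± 413 CPM, mean ± SD, n = 8, log2 difference 0.07 (SE 0.23), adjusted p = 0.959), with a wide spread between libraries. Thus, of the 4 markers, Fmo2 and C7 held against both neighbours.

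By the whole transcriptome, the F3+ Gdf10+ cells stood far from the Dpp4+ Pi16+ cells and close to the Icam1+ Col15a1+ cells. With the genes of the gates left out, 2668 of 10587 genes (25.2%) differed from Dpp4+ Pi16+ cells, 1335 higher and 1333 lower (12.6% each), and 147 of 9307 (1.58%) differed from Icam1+ Col15a1+ cells, 111 higher (1.19%) and 36 lower (0.387%). The Icam1+ Col15a1+ class is smaller, so the counts do not measure equal power. Lpl, Pparg and Sparcl1, markers of committed preadipocytes, stood at like levels in F3+ Gdf10+ and Icam1+ Col15a1+ cells. Of 17 fatty acid uptake and storage genes, however, 13 had negative differences to Icam1+ Col15a1+ cells (median log2 difference -0.25). Lpl, the lipase that frees fatty acids for uptake, stood at 1596 ± 298 CPM (mean ± SD, n = 8) in F3+ Gdf10+ cells, 1541 ± 397 in Icam1+ Col15a1+ cells and 128 ± 28.9 in Dpp4+ Pi16+ cells. Pparg, the master regulator of adipocyte differentiation, stood at 33.0 ± 4.02, 35.2 ± 7.03 and 2.55 ± 0.86 CPM, and Sparcl1, a matricellular protein, at 1427 ± 209, 1502 ± 289.7 and 25.9 ± 12.8 CPM in the same order. Against Icam1+ Col15a1+ cells, 1 of 10 Icam1+ progenitor markers tested was called lower (Cd36, the fatty acid translocase) and 1 higher (Agt, angiotensinogen). The genes of early progenitors were low beside Dpp4+ Pi16+ cells but not beside Icam1+ Col15a1+ cells. Among the Dpp4+ progenitor markers called lower than in Dpp4+ Pi16+ cells, Anxa3 stood at 44.3 ± 11.7 against 961 ± 67.6 CPM and Sema3c at 25.2 ± 5.10 against 518 ± 58.7 CPM. Efhd1, Limch1 and Dact2 were at 1.68 to 2.33 CPM against 100.1 to 186 CPM, passed the filter on low counts only through the Dpp4+ Pi16+ cells, and are given as levels without a call. Against Icam1+ Col15a1+ cells, 2 of 5 tested were called higher and none lower (median log2 difference 0.29). These were Fn1, fibronectin, at 352 ± 114 against 113 ± 17.4 CPM (log2 difference 1.60, SE 0.09), and Sema3c, a semaphorin, against 12.2 ± 4.95 CPM (log2 difference 0.96, SE 0.14).

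Few genes stood apart from both neighbours at once. Of 9298 genes tested in both comparisons, 39 were called higher than in both and 4 lower than in both. Mgp, matrix Gla protein, which inhibits calcification and BMP signalling, led the list at 407 ± 281 CPM against 18.3 ± 22.7 in Dpp4+ Pi16+ and 107 ± 119 in Icam1+ Col15a1+ cells, with log2 differences of 4.55 (SE 0.35) and 2.06 (SE 0.16). Its level was uneven, with 289, 204, 223 and 286 CPM in Ad-Lib against 286, 910.4, 253 and 803 CPM in TAN, so TAN 4 and TAN 8 stood above the other 6 libraries. Fmo2 followed at 330.2 ± 74.0 against 22.6 ± 9.002 and 76.4 ± 42.7 CPM, with log2 differences of 3.67 (SE 0.16) and 2.05 (SE 0.09). Igf1, insulin-like growth factor, stood at 441.4 ± 104 CPM against 133 ± 43.1 and 188 ± 58.8, and Penk, the enkephalin precursor, at 147 ± 20.6 against 60.2 ± 10.7 and 57.0 ± 17.1. The spread of Igf1 and Penk over the 8 libraries was smaller than the gap to either neighbour.

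The other leading genes had differing known roles. C7 stood at 328 ± 97.7 CPM against 152 ± 67.1 in Dpp4+ Pi16+ and 71.4 ± 46.2 in Icam1+ Col15a1+ cells, and C2, a protease of the classical complement pathway, at 142 ± 30.7 against 44.9 ± 6.84 and 89.2 ± 21.1. C4b, Cfb and Cfd, further complement genes, were also called higher than in Icam1+ Col15a1+ cells, and against Dpp4+ Pi16+ cells they were not called. The complement genes Cd55, Serping1, C1qtnf1, Clu and C3 were called lower than in Dpp4+ Pi16+ cells. Inmt, an amine methyltransferase, and Apoe, the lipid carrier apolipoprotein E, stood at 1448 ± 192 and 891 ± 234 CPM, against 812 ± 160.3 and 544 ± 236 in Icam1+ Col15a1+ cells. Apoe was also at 462 CPM in B-like droplets. The plot of levels by population shows the remaining leaders: Nrp1, a semaphorin and VEGF co-receptor, Fbln1, a matrix fibulin, Serpina3n, a protease inhibitor, and Tmem176b, a membrane channel protein. Serpina3n lost its call against Icam1+ Col15a1+ cells without TAN 8, where the log2 difference of 0.56 fell under 1.5-fold. Tmem176b stood higher in B-like droplets (133 CPM) than in the cells themselves (73.3 CPM), and reads of Tmem176a and Tmem176b, which are neighbouring paralogs, may be hard to divide.

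**Figure D1:**
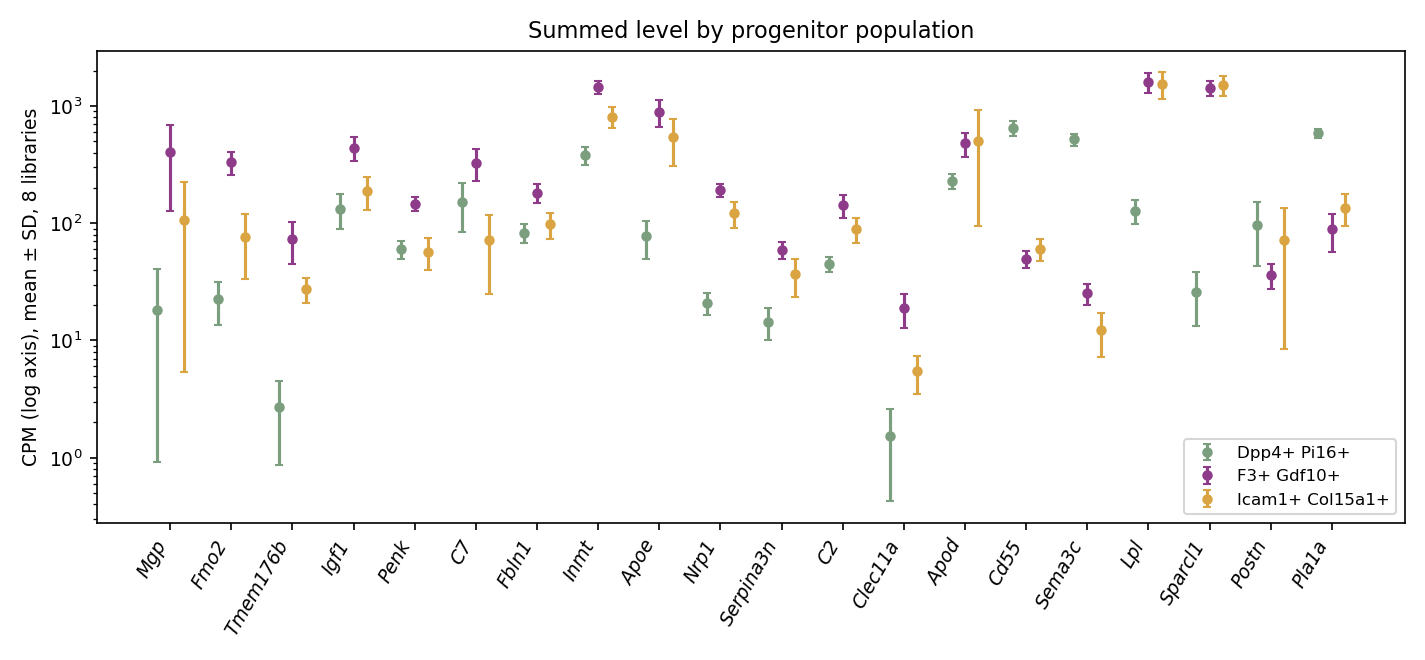
Summed level in CPM (log axis, mean ± SD over 8 libraries; bars that would reach 0 are shortened) of named genes in Dpp4+ Pi16+, F3+ Gdf10+ and Icam1+ Col15a1+ progenitors. Fmo2 stood at 330.2 CPM in F3+ Gdf10+ cells and at 22.6 and 76.4 CPM in the others, whereas Lpl and Sparcl1 lay together in the F3+ Gdf10+ and Icam1+ Col15a1+ cells.

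Genes lower than in both neighbours were few. Pla1a, a phosphatidylserine phospholipase, stood at 88.5 ± 31.5 CPM against 589 ± 52.8 and 135 ± 40.6. Postn, the matrix protein periostin, stood at 36.2 ± 8.52 against 96.98 ± 54.1 and 72.2 ± 63.7, but the second difference lost its call without TAN 8 (edgeR adjusted p = 0.146). Secreted proteins that have been put forward as mediators of an inhibitory action described for CD142+ cells were not uniformly present. Of 6 of them tested against each neighbour, Mgp was called higher than in both, Bgn higher than in Dpp4+ Pi16+ cells, and Vit and Igfbp3 higher than in Icam1+ Col15a1+ cells. Cpe was seen in 8.87% of F3+ Gdf10+ and 1.18% of Dpp4+ Pi16+ cells. It may have passed the filter on low counts only through the F3+ Gdf10+ cells and is given without a call. Igfbp3 was called lower than in Dpp4+ Pi16+ cells and Fibin lower than in Icam1+ Col15a1+ cells. Of all genes tested, 25.2% were called against Dpp4+ Pi16+ and 1.58% against Icam1+ Col15a1+ cells. Fgf12, Rtp3 and Spink2 were close to 0, with at most 0.621, 0.971 and 0.327 CPM in any library, so they were barely detectable at this depth.

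To ask whether the cells form a uniform class, those with Gdf10 alone and those with F3 alone were compared within the same libraries. The groups were sparse in places, with 38 to 194 Gdf10-only cells and 7 to 150 F3-only cells per library, and TAN 6 gave the 7. Depth was alike, with library medians of 8825 to 11142 UMIs in Gdf10-only and 9372 to 11481 in F3-only cells. With F3 and Gdf10 left out, 517 of 6893 genes (7.5%) differed, 307 higher with Gdf10 alone (4.45%) and 210 higher with F3 alone (3.05%). Fn1, the matrix protein fibronectin, led the list, at 676 ± 311 CPM with Gdf10 alone, 318 ± 76.6 with both and 36.7 ± 19.3 with F3 alone (mean ± SD, n = 8), a log2 difference of 4.33 (SE 0.15). Smpd3, a neutral sphingomyelinase, stood at 107 ± 68.0 against 4.77 ± 3.65 CPM, and Il1r2, a decoy receptor for interleukin-1, at 123 ± 45.3 against 9.10 ± 7.09. Smpd3 and Il1r2 were scarce with F3 alone and may have passed the filter on low counts only through the Gdf10-only cells. They are therefore given as levels. Sult1e1 (an estrogen sulfotransferase), Plac8 and Pcolce2 (an enhancer of procollagen processing) completed the leading 6.

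The F3-only side led with other genes. Ndufa4l2, a mitochondrial protein, stood at 139 ± 25.2 CPM with F3 alone, 78.0 ± 15.6 with both and 37.3 ± 16.5 with Gdf10 alone, a log2 difference of -1.94 (SE 0.14). Mdk, the growth factor midkine, stood at 107 ± 31.7 against 28.6 ± 10.3 CPM and Smoc2, a calcium-binding matrix protein, at 1494 ± 437 against 647 ± 218. Timp3, an inhibitor of matrix proteases, Ifi30, a lysosomal thiol reductase, and H2-D1, a class I histocompatibility gene whose paralogs may share reads, completed the leading 6. Ifi30 and H2-D1 were also at 236 and 1126 CPM in B-like droplets, which express them. All 12 leaders kept their call in each of the 8 fits that left out 1 library, which for Smpd3 and Il1r2 carries the limit given above.

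Markers of the neighbouring populations were then set beside the split. Of all genes tested, 4.45% were called higher with Gdf10 alone and 3.05% with F3 alone. Of 11 Dpp4+ progenitor markers, 5 passed the filter on low counts (Anxa3, Cd55, Creb5, Fn1 and Sema3c), and these were called higher with Gdf10 alone. A marker as low with F3 alone as Anxa3 may have passed only through the Gdf10-only cells, so these calls are given as a description. Anxa3 stood at 99.5 ± 52.6 CPM with Gdf10 alone and 11.1 ± 6.46 with F3 alone, yet at 961 ± 67.6 in Dpp4+ Pi16+ cells, so the Gdf10-only cells remained far below that population. Of 12 Icam1+ progenitor markers, 5 were called higher with F3 alone (Col15a1, Col4a2, Fabp4, Plin2 and Sparcl1) and 1 with Gdf10 alone (Agt); Col15a1 and the limits on Pi16 and Dpp4 belong to the gates. Sparcl1 stood at 1917 ± 273 against 1032 ± 229 CPM and Plin2, a lipid droplet coat protein, at 254 ± 46.9 against 128 ± 28.4. The complement genes C3, C4b, C7 and Cfd were called higher with Gdf10 alone. Stromal cytokines and chemokines divided 7 to 1 of 14 tested, against the same 4.45% and 3.05% of all genes, with Ccl2, Ccl7, Ccl19, Cxcl10, Cxcl12, Cxcl13 and Il6 higher with Gdf10 alone and Cxcl14 higher with F3 alone. Of the markers of the class, Fmo2 and Clec11a were highest in cells with both. Fmo2 stood at 436 ± 117 CPM with both, 195 ± 45.8 with Gdf10 alone and 165 ± 53.0 with F3 alone, and Clec11a at 26.4 ± 11.2, 11.2 ± 5.34 and 5.11 ± 4.39. Cells with both were not tested against the others.

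**Figure D2:**
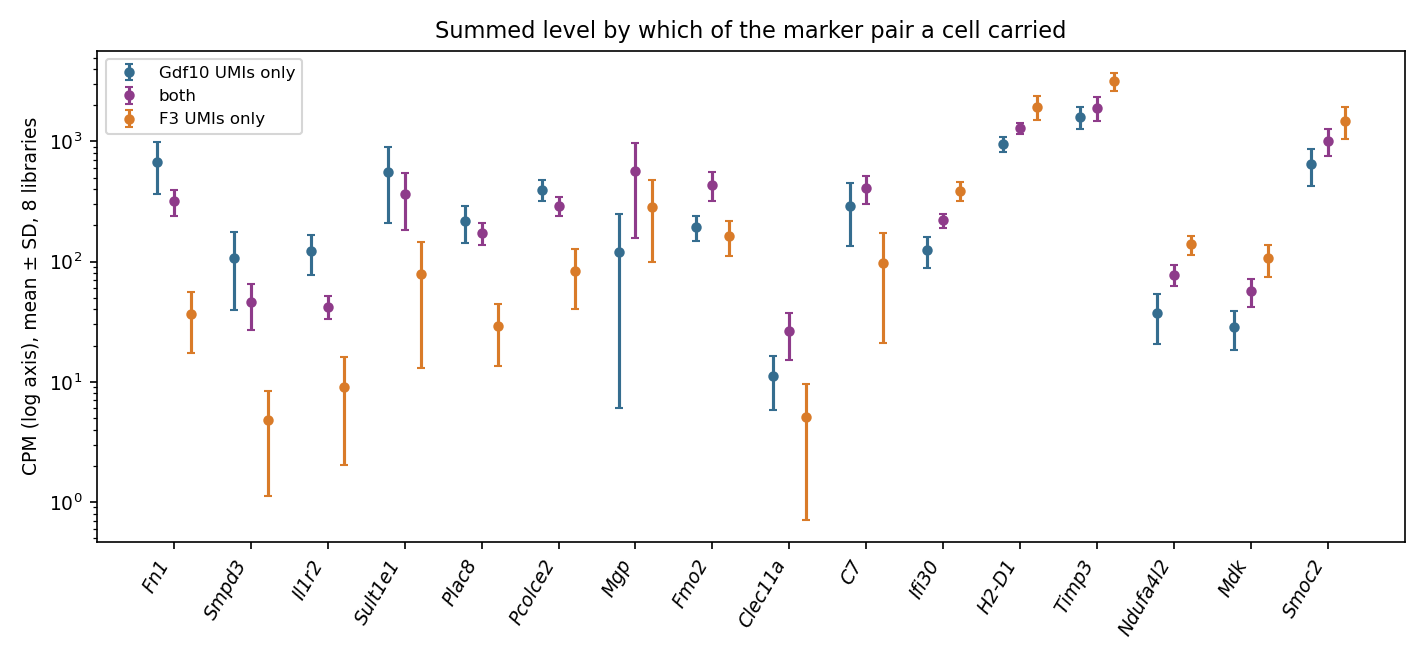
Summed level in CPM (log axis, mean ± SD over 8 libraries; bars that would reach 0 are shortened) in cells with Gdf10 UMIs only, with both, and with F3 UMIs only. Fn1 to Pcolce2 step down from left to right within each gene, Ifi30 to Smoc2 step up, and Fmo2 and Clec11a peak in cells with both (436 and 26.4 CPM).

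The study asked how meal timing remodels subcutaneous fat, so the share of F3+ Gdf10+ cells was compared between feeding groups. They made up 12.5%, 8.18%, 12.8% and 11.999% of all cells kept in Ad-Lib 1, 3, 5 and 7 and 8.85%, 3.84%, 2.97% and 7.55% in TAN 2, 4, 6 and 8. The means were 11.4% ± 2.15 (SD, n = 4) in Ad-Lib and 5.80% ± 2.84 in TAN. Ad-Lib 3 lay below TAN 2, so the groups overlapped, and the exact permutation test over the 70 assignments of libraries gave p = 0.0571 (two-sided, smallest possible 0.0286). Ad-Lib 3, TAN 4, TAN 6 and TAN 8 were also the libraries with most B-like droplets (704, 606, 692 and 509, against 23 to 145 in the others). With cells that carried a Cd3 or Cd79 UMI left out of the count, the means were 12.8% ± 1.14 and 7.97% ± 2.47 and the groups did not overlap (exact permutation p = 0.0286).

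Among stromal cells alone the gap was smaller. The share was 32.0%, 32.2%, 40.8% and 31.2% in the Ad-Lib libraries and 34.7%, 20.4%, 24.9% and 30.9% in the TAN libraries, with means of 34.0% ± 4.52 and 27.7% ± 6.35 (SD, n = 4, exact permutation p = 0.2). TAN 2 exceeded 3 of the 4 Ad-Lib libraries. Leaving out TAN 2 moved the difference from -6.33 to -8.66 percentage points (exact permutation p = 0.0571, the smallest that 3 against 4 allows), while it was -3.88 without TAN 4 and -4.07 without Ad-Lib 5 (exact permutation p = 0.4 for both). With each cell thinned to 5000 UMIs it was -2.65 (exact permutation p = 0.514). A lower share within the stroma was therefore not shown. Median depth per F3+ Gdf10+ cell was 10787 ± 582 UMIs in Ad-Lib and 10134 ± 905 in TAN (exact permutation p = 0.371), and the median mitochondrial share was 1.86% ± 0.202 and 2.04% ± 0.139 (p = 0.2 by the same exact test, n = 4 each). Over all cells kept, library medians of the mitochondrial share were 1.76% to 2.38% in Ad-Lib and 2.69% to 3.64% in TAN, without overlap. Median UMIs of all cells kept were 5060 to 6560.5 in Ad-Lib and 3925.5 to 5189 in TAN. The part of these differences in the shares was not tested.

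**Figure D3:**
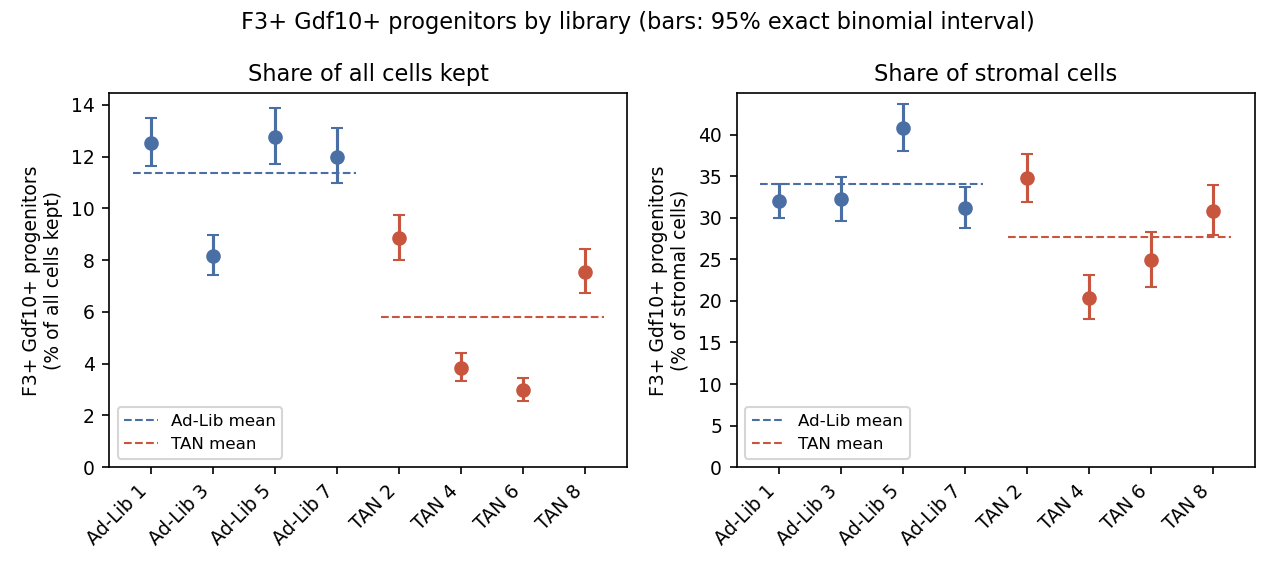
F3+ Gdf10+ progenitors as a percentage of all cells kept (left) and of stromal cells (right) in each library, with 95% exact binomial intervals (counting error only) and dashed group means. In the left panel Ad-Lib 3, at 8.18%, lies under TAN 2, at 8.85%, and in the right panel TAN 2, at 34.7%, lies among the Ad-Lib libraries.

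Feeding moved a limited set of transcripts within these cells. Of 10821 genes tested, 122 (1.13%) were called, 38 higher in TAN (0.351%) and 84 lower (0.776%), and the median log2 change over all genes was 0.01. The feeding groups did not overlap for 814 genes (7.52%), with TAN above in 553 (5.11%) and below in 261 (2.41%). The count rests in part on TAN 2, since 55 genes were called without it, 49 of them among the 122. Of the 122, 39 kept their call in each of the 8 fits that left out 1 library. No marker of the class outside the rule was among the 122. Fmo2, Clec11a and Apod had log2 changes of -0.10, -0.01 and 0.12, with overlapping groups. Gdf10 and F3, at 0.02 and 0.12, were used by the rule, and their changes are given as a description. C7 had a change of -0.64 (SE 0.17), adjusted p = 0.0781 by edgeR, and Mgp 1.11 (SE 0.31), adjusted p = 0.0871, neither past the threshold. None of the 7 proposed secreted inhibitors tested was called.

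Fabp4 and Cd36, genes of lipid uptake, rose. Fabp4, the fatty acid carrier of adipocytes (chr3:10204088-10208576, minus strand), stood at 263, 439, 359 and 382 CPM in Ad-Lib 1, 3, 5 and 7 against 975, 794, 1194 and 1027 CPM in TAN 2, 4, 6 and 8. All 4 TAN libraries lay above all Ad-Lib libraries (log2 change 1.42, SE 0.14, adjusted p = 0.000119). Cd36 (chr5:17781690-17888801, minus strand) stood at 16.2, 14.8, 17.1 and 16.8 CPM in Ad-Lib against 62.4, 41.0, 59.7 and 35.6 CPM in TAN, again without overlap (log2 change 1.58, SE 0.17, adjusted p = 0.000243). Both transcripts were also found in B-like droplets, Fabp4 at 984 CPM (Ad-Lib) and 982 CPM (TAN) and Cd36 at 111 CPM (Ad-Lib) and 96.7 CPM (TAN), which were above the Ad-Lib levels of the F3+ Gdf10+ cells and not higher in TAN, and the part of such floating RNA was not tested. They were the 2 called of 18 fatty acid uptake and storage genes, of which 10 had positive changes (median log2 change 0.04), where 0.351% of all genes tested were called higher. Lpl had a change of 0.25 (SE 0.13) and Pparg of -0.07 (SE 0.12), neither called, and none of 18 lipogenesis and sterol genes was called. The 10 adipocyte markers in the list of other cell types summed to 68.7 to 107 CPM in Ad-Lib and 77.2 to 109 CPM in TAN, none of the 5 tested was called, and their part in the result was not tested.

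Several genes of signalling also rose, where 0.351% of all genes tested were called higher and 0.776% lower. Cxcl12, the chemokine that holds leukocytes and progenitors in stromal niches (chr6:117168535-117181367, plus strand), stood at 312, 361, 391 and 397 CPM in Ad-Lib against 724, 745, 537 and 589 CPM in TAN (log2 change 0.79, SE 0.12, adjusted p = 0.00347), with no overlap. Il33, the alarmin cytokine of stromal cells, was scarce but called, at 7.02, 6.31, 4.10 and 5.44 CPM in Ad-Lib against 13.7, 14.9, 14.9 and 10.1 CPM in TAN (log2 change 1.15, SE 0.23, adjusted p = 0.0147), and lost its call without TAN 2 (adjusted p = 0.0948) and without TAN 4 (adjusted p = 0.0552). Of 19 stromal cytokines and chemokines, those were the 2 higher, and Cxcl1, a neutrophil chemokine, was lower but kept its call in only 2 of 8 fits that left out a library (adjusted p of 0.064 to 0.164 in the others). Hsd11b2, which inactivates glucocorticoids, stood at 5.49, 5.83, 5.89 and 6.31 CPM in Ad-Lib against 31.1, 10.6, 48.2 and 16.3 CPM in TAN (log2 change 2.12, SE 0.32, adjusted p = 0.00347). Its Ad-Lib values lay within 1 CPM of each other while its TAN values spread more than 4-fold. Cyp26b1, which degrades retinoic acid, was at 29.4, 57.8, 86.5 and 50.3 CPM in Ad-Lib against 184, 301, 73.5 and 242 CPM in TAN (log2 change 1.82, SE 0.32, adjusted p = 0.00727), and TAN 6 lay below Ad-Lib 5. It was the called gene of 11 retinoid genes, of which 8 had positive changes (median 0.56). Igfbp5, an insulin-like growth factor binding protein, was at 645, 620.0, 619.6 and 940.0 CPM in Ad-Lib against 1465, 1167, 1508 and 943 CPM in TAN (log2 change 0.81 (SE 0.16)) and lost its call without TAN 2 (adjusted p = 0.0745). C4b of the complement system changed by 0.69 (SE 0.13) and lost its call without TAN 2 (adjusted p = 0.0594) and, by size, without TAN 6.

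The other leaders among the higher genes were regulators of several kinds. Sox4, a transcription factor of progenitor cells, was at 34.6, 36.2, 44.2 and 40.5 CPM in Ad-Lib against 64.5, 76.4, 61.4 and 74.9 CPM in TAN (log2 change 0.79, SE 0.10, adjusted p = 0.000948), and Csrp2, a LIM-domain protein of the cytoskeleton, at 74.7, 87.7, 71.4 and 99.9 CPM in Ad-Lib against 157, 138, 195 and 153 CPM in TAN. Both were without overlap. Esr1, the estrogen receptor, changed by 0.61 (SE 0.10) and lost its call, by size, without Ad-Lib 3, Ad-Lib 7 or TAN 4, and Asns, asparagine synthetase, by 1.02 (SE 0.17), lost without TAN 2 (adjusted p = 0.0531 by edgeR). Ephb2, an ephrin receptor, changed by 1.33 (SE 0.20). Tmem176a and Tmem176b changed by 1.29 (SE 0.18) and 0.93 (SE 0.13) and stood lower in the B-like droplets of TAN, from 209 CPM in Ad-Lib to 48.4 CPM in TAN for Tmem176a. Mid1, a ubiquitin ligase whose gene crosses into sequence common to both sex chromosomes, so that its counts are uncertain, was at 18.1, 16.03, 15.7 and 19.8 CPM in Ad-Lib against 50.6, 34.2, 36.2 and 55.3 CPM in TAN (log2 change 1.34, SE 0.15, adjusted p = 0.000344). It also went from 5.92 to 26.95 CPM in B-like droplets. The Ad-Lib levels in B-like droplets rest on few droplets in Ad-Lib 1, 5 and 7.

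**Figure D4:**
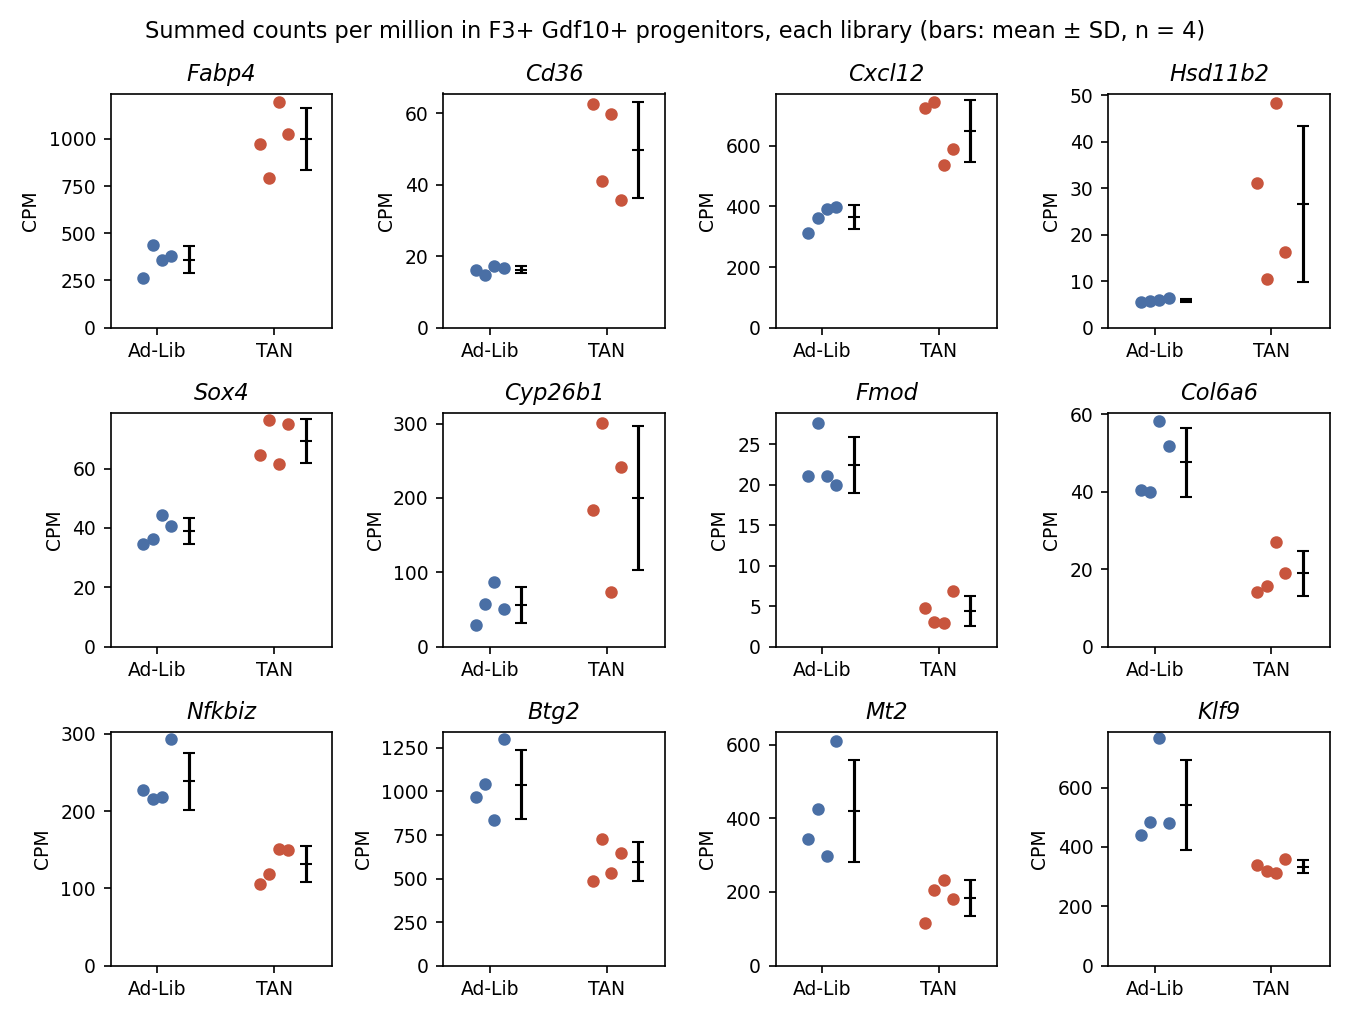
Level in CPM of 12 genes in the F3+ Gdf10+ cells of each library, Ad-Lib (left) and TAN (right) in each panel, with mean ± SD (n = 4). The groups are separate for all but Cyp26b1, whose TAN 6 value of 73.5 CPM lies under the Ad-Lib 5 value of 86.5 CPM.

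Genes known to respond to glucocorticoids were lower in TAN by count. All 15 tested had negative changes, with a median log2 change of -0.73 against 0.01 over all genes, and 6 were called lower (Errfi1, Klf9, Mt1, Mt2, Per1 and Tsc22d3) against 0.776% of all genes tested. Mt2, a metallothionein that binds zinc (chr8:94172664-94173568, plus strand), was at 344, 426, 297 and 611 CPM in Ad-Lib against 116, 204, 232 and 181 CPM in TAN (log2 change -1.26, SE 0.20, adjusted p = 0.00544), and its neighbour Mt1 (chr8:94179082-94180327, plus strand) at 1786, 2314, 1676 and 3051 CPM in Ad-Lib against 847, 1206, 1630.2 and 997 CPM in TAN (log2 change -0.97, SE 0.19, adjusted p = 0.0138). Every TAN library lay below every Ad-Lib library for both, with TAN 6 and Ad-Lib 5 close together for Mt1. Mt1 lost its call without TAN 2 (adjusted p = 0.0772) and without TAN 8 (adjusted p = 0.0506), and the 2 genes are close paralogs. Klf9, a transcription factor, was at 439, 483, 766 and 479 CPM in Ad-Lib against 340.4, 321, 313 and 361 CPM in TAN (log2 change -0.73, SE 0.13, adjusted p = 0.00727), and Ad-Lib 5 stood above the rest. It fell under 1.5-fold without Ad-Lib 5. Per1, a repressor of the circadian clock, was at 28.2, 26.5, 36.2 and 27.2 CPM in Ad-Lib against 15.3, 19.9, 20.1 and 19.3 CPM in TAN (log2 change -0.74, SE 0.13, adjusted p = 0.00723) and lost its call without TAN 2 (adjusted p = 0.0566). Tsc22d3, which encodes the anti-inflammatory protein GILZ, changed by -0.81 (SE 0.15) and lost its call without TAN 2 (adjusted p = 0.0677). Errfi1, an inhibitor of EGF receptor signalling, changed by -0.66 (SE 0.15) and lost it in 5 of 8 such fits. Zbtb16 and Fkbp5, textbook targets, had changes of -1.15 (SE 0.31) and -0.73 (SE 0.23) that were not called (adjusted p = 0.0738 and 0.128).

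Immediate early genes switch on within minutes of a stimulus. All 18 tested had negative changes (median -0.48), against a median of 0.01 over all genes, and 2 were called lower, where 0.776% of all genes tested were: Nr4a1, an orphan nuclear receptor, at 96.1, 77.9, 42.6 and 88.6 CPM in Ad-Lib against 26.6, 44.1, 25.8 and 34.3 CPM in TAN (log2 change -1.31, SE 0.24, adjusted p = 0.00886), and Egr3, at -0.71 (SE 0.16). Ad-Lib 5 lay below TAN 4 for Nr4a1, so its groups overlapped. Nr4a1 lost its call without TAN 2 (adjusted p = 0.0632) and Egr3 in 5 of 8 such fits. Fos was at 4610.4, 5053, 4690.4 and 5495 CPM in Ad-Lib against 3781, 4382, 3483 and 4015 CPM in TAN, with no overlap but a change of -0.39 (SE 0.11) that was not called. Other genes with a small adjusted p were lower as well. Nfkbiz, a co-regulator of NF-kappaB, was at 227, 215, 218 and 294 CPM in Ad-Lib against 105, 119, 152 and 149.8 CPM in TAN (log2 change -0.92, SE 0.12, adjusted p = 0.000948). Btg2, which restrains cell division, was at 971, 1046, 834 and 1304 CPM in Ad-Lib against 486, 729, 529 and 646 CPM in TAN (log2 change -0.85, SE 0.14, adjusted p = 0.0062). Ppp1r15a, which lifts the translational block of the stress response, and Ccnl1, a cyclin of RNA splicing, changed by -0.84 (SE 0.13) and -0.75 (SE 0.09). Phlda1 and Arl4a changed by -0.79 (SE 0.12) and -0.59 (SE 0.09), the second losing its call by size without Ad-Lib 3, Ad-Lib 5 or TAN 8. Of 4 genes whose levels mark stripped or stressed cells, none was called, and the part of such cells in the changes above was not tested.

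The sequences upstream of some of these genes are shown because Mt1, Mt2, Btg2 and Ppp1r15a were all called lower. RefSeq promoters on GRCm38.p6 were matched by symbol for 67 of the 84 lower and 26 of the 38 higher genes, and the 250 bases before the start were searched on both strands. The core of the metal response element that the factor MTF1 reads was searched as TGCACNC or TGCGCNC, and the cAMP response element that CREB reads as TGACGTCA. Neither motif contains the other. The choice of motifs and promoters was made after the values were seen. Capitals mark the metal response core in Mt1 and Mt2 and the cAMP response element in Btg2 and Ppp1r15a, each given 5′ to 3′ on the gene's strand.
Mt1 (chr8:94178839-94179088, plus strand): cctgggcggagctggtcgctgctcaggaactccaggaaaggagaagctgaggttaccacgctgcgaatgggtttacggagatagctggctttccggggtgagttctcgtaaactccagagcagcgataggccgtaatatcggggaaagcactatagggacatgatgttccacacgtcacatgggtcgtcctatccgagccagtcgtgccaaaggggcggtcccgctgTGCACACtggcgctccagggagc
Mt2 (chr8:94172368-94172617, plus strand): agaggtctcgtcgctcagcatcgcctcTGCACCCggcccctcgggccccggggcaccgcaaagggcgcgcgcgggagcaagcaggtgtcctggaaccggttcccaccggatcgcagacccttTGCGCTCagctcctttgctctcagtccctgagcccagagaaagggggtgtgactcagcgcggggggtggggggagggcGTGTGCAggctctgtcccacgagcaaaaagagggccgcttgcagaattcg
Btg2 (chr1:134079156-134079405, minus strand): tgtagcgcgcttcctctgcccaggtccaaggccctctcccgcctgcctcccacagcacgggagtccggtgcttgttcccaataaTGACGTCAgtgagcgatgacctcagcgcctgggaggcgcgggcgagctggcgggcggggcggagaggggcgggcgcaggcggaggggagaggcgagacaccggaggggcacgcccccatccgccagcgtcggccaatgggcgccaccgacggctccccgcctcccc
Ppp1r15a (chr7:45526269-45526518, minus strand): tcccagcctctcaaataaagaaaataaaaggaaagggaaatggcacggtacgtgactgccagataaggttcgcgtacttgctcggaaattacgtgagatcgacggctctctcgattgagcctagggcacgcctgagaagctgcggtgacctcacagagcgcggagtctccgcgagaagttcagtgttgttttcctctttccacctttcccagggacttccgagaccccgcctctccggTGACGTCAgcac

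Mt1 held 1 match and Mt2 held 3 matches to the metal response core in this window, and Btg2 and Ppp1r15a held 1 cAMP response element each. The windows end at the RefSeq starts, which for Mt1 and Mt2 are not the gene starts given earlier. Matches outside the windows were not counted. Btg2 also holds the metal response core, left in lower case above. The metal response core is short and common: 21.4% of 32851 promoters held it, as did 35.1% of the promoters of genes tested, 20 of the 67 lower genes (29.9%) and 12 of the 26 higher genes. The cAMP response element was found in 1.55% of all promoters, in 267 of 8564 genes tested (3.12%), in 6 of the 67 lower genes (Btg2, Ccnl1, Errfi1, Has1, Maff and Ppp1r15a) and in 0 of the 26 higher genes. These matches describe letters in the window and were not tested.

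Fmod and Col6a6, which encode matrix proteins, were among the genes that fell. Fmod, fibromodulin, a small proteoglycan that orders collagen fibrils (chr1:134037254-134048277, plus strand), was, with Fabp4, the gene of smallest adjusted p, at 21.05, 27.7, 21.1 and 20.03 CPM in Ad-Lib against 4.74, 3.11, 2.87 and 6.87 CPM in TAN (log2 change -2.27, SE 0.22, adjusted p = 0.000119). All 4 TAN libraries lay far below all 4 Ad-Lib libraries. Col6a6, a chain of beaded-filament collagen (chr9:105687809-105828160, minus strand), was at 40.4, 39.8, 58.2 and 51.8 CPM in Ad-Lib against 14.2, 15.5, 26.98 and 19.0 CPM in TAN (log2 change -1.41, SE 0.16, adjusted p = 0.000275), without overlap. Col4a4, Col4a5 and Col4a3, the chains of specialised basement membranes, changed by -0.76 (SE 0.12), -0.96 (SE 0.16) and -0.71 (SE 0.14). Col4a3 lost its call without TAN 2 (adjusted p = 0.111) and without TAN 4 (adjusted p = 0.0644 by edgeR), and Col4a3 and Col4a4 are neighbouring genes that start close together on opposite strands. Col6a6, Col4a3, Col4a4 and Col4a5 are not on the collagen list, and 0.776% of all genes tested were called lower. Of 17 fibrillar and basement membrane collagens on the list, 16 had negative changes (median -0.34) and 1, Col5a3, was called, at 876, 744, 838 and 761 CPM in Ad-Lib against 504, 447, 606 and 665 CPM in TAN (log2 change -0.59, SE 0.11, adjusted p = 0.0103). It lost its call without Ad-Lib 1, TAN 2 or TAN 4. Col1a1 and Col3a1, which the rule used, changed by -0.43 (SE 0.12) and -0.40 (SE 0.11). Of 23 microfibril and small proteoglycan genes, 2 were called, Fmod and Aspn, asporin, which changed by -0.63 (SE 0.13) and lost its call without Ad-Lib 7, TAN 2 or TAN 4.

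Pla1a and Galnt15, an enzyme that starts sugar chains on proteins, changed by -0.90 (SE 0.14) and -0.80 (SE 0.11), and Actg1, cytoplasmic actin, by -0.72 (SE 0.09). Has1, a hyaluronan synthase, was at 101, 89.6, 55.5 and 111 CPM in Ad-Lib against 32.9, 47.9, 43.0 and 43.8 CPM in TAN (log2 change -1.17, SE 0.19, adjusted p = 0.00544), and Ccn1, a matricellular growth regulator, at 190.3, 150.3, 214 and 264 CPM in Ad-Lib against 56.9, 109, 71.2 and 133 CPM in TAN (log2 change -1.20, SE 0.20, adjusted p = 0.00588). Both groups were separate for Has1 and for Ccn1. The counts by list that follow stand beside 0.776% of all genes tested called lower. In the TGF-beta family Bmp4, a ligand that commits progenitors to the fat lineage, was called lower among 8 ligands (77.5, 72.8, 134 and 66.2 CPM in Ad-Lib against 45.3, 39.1, 31.6 and 71.0 CPM in TAN, log2 change -0.90, SE 0.22, adjusted p = 0.0423) but overlapped, TAN 8 lying above Ad-Lib 7, and lost its call in 6 of 8 such fits. Id1, a target of BMP signalling, was the called gene of 22 receptors, inhibitors and targets, at -1.13 (SE 0.23), lost without TAN 2 (adjusted p = 0.126). Among 15 genes around tissue factor and clotting, Thbs1, thrombospondin, was called lower (-1.44 (SE 0.34)) with overlapping groups and lost its call in 5 of 8 such fits. Gm26802 is a predicted gene of unknown role, which changed by -1.82 (SE 0.27).

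The remaining lists held at most 2 called genes each, where 1.13% of all genes tested were called. No called gene was found among 19 Notch and Wnt genes, 20 matrix proteases and their inhibitors, 17 interferon-induced genes or 8 Dpp4+ progenitor markers. Of 15 core clock genes, Per1 and Nfil3, a repressor that binds D-box elements, were called lower, while Dbp, Nr1d1 and Tef had changes of -0.15 (SE 0.15), -0.23 (SE 0.16) and 0.02 (SE 0.09). Nfil3 kept its call in 1 of 8 fits that left out a library. Of 18 adipogenic regulators, Klf9 alone was called lower, and Cebpa and Cebpb changed by 0.12 (SE 0.15) and -0.34 (SE 0.12). Hspa1a, a heat shock protein with a near-identical paralog, was the called gene of 16 in its list (-0.74 (SE 0.14)) and lost its call without TAN 4 (adjusted p = 0.0537). All 26 cytosolic ribosomal protein genes tested had small positive changes (median 0.12), none of them called.

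Signs of other cells were measured as summed markers. In the F3+ Gdf10+ cells, summed markers of pericytes and smooth muscle ranged from 83.6 to 93.8 CPM in Ad-Lib and 90.7 to 134 CPM in TAN, Schwann cell markers from 20.7 to 33.4 and 28.1 to 47.7 CPM, and macrophage and dendritic markers from 38.1 to 104 and 42.3 to 74.0 CPM. Endothelial markers stayed between 6.89 and 18.7 CPM and lymphocyte markers between 7.46 and 32.7 CPM over all libraries. Markers of tendon, perineurial and cartilage fibroblasts ranged from 19.98 to 76.4 CPM in Ad-Lib and 20.8 to 55.1 CPM in TAN, with Acan at 0. Of 10 epithelial, mesothelial and muscle markers, 6 were at 0. The only called genes of these lists were S100b of the Schwann list, called higher, with 0.85 (SE 0.17), and Lyz2 of the macrophage list, called lower, with -1.02 (SE 0.24). S100b lost its call without TAN 2 (adjusted p = 0.142 by edgeR), Lyz2 in 6 of 8 fits that left out a library, and Lyz2 was at 442 CPM (Ad-Lib) and 153 CPM (TAN) in B-like droplets. Their part in the results above was not tested.

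The same feeding comparison was then set beside that in the neighbours. By their own fits in the same libraries, 40 of 10209 genes (0.392%) were called in Dpp4+ Pi16+ cells, 10 higher (0.098%) and 30 lower (0.294%). In Icam1+ Col15a1+ cells 109 of 8054 (1.35%) were called, 33 higher (0.41%) and 76 lower (0.944%). The difference between the changes was tested directly with edgeR, with no minimum size. Of 11158 genes, 46 (0.412%) changed differently in F3+ Gdf10+ and Dpp4+ Pi16+ cells, 40 (0.358%) with the lower and 6 (0.0538%) with the higher change in F3+ Gdf10+ cells. Without TAN 2 there were 27 such genes and without TAN 8 there were 77. Col6a6 had a change of -1.41 (SE 0.16) in F3+ Gdf10+ cells and 0.15 (SE 0.12) in Dpp4+ Pi16+ cells (difference -1.55, SE 0.18, adjusted p = 0.000477). In Dpp4+ Pi16+ cells it was at 22.7, 22.1, 24.8 and 30.0 CPM in Ad-Lib against 24.4, 30.1, 26.8 and 28.8 CPM in TAN, overlapping groups that lay below the Ad-Lib level of F3+ Gdf10+ cells. Btg2 changed by -0.85 (SE 0.14) and -0.12 (SE 0.15) in the same order (difference -0.74, SE 0.09, adjusted p = 0.000872). Il6, an inflammatory cytokine, was at 82.2, 54.9, 31.2 and 98.9 CPM in Ad-Lib against 31.6, 68.4, 31.6 and 44.5 CPM in TAN in F3+ Gdf10+ cells and at 92.4, 82.5, 48.5 and 127 CPM in Ad-Lib against 122, 138, 77.0 and 126 CPM in TAN in Dpp4+ Pi16+ cells. Neither change of Il6 was called, but the difference between them was (-1.11, SE 0.16, adjusted p = 0.00323). Prss23, a serine protease, went the other way, at 577, 486, 478 and 482 CPM in Ad-Lib against 318, 331, 291 and 337 CPM in TAN in Dpp4+ Pi16+ cells, where it fell, and at 302, 311, 378 and 299 CPM in Ad-Lib against 358, 447, 311 and 423 CPM in TAN in F3+ Gdf10+ cells, where its change of 0.21 (SE 0.11) was not called (difference 0.88, SE 0.11, adjusted p = 0.000872).

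Genes of the glucocorticoid and immediate early lists were among the 46. Mt1 and Mt2 changed by -0.97 (SE 0.19) and -1.26 (SE 0.20) in F3+ Gdf10+ cells and by -0.30 (SE 0.20) and -0.34 (SE 0.19) in Dpp4+ Pi16+ cells (differences of -0.68, SE 0.10, adjusted p = 0.00331 and of -0.91, SE 0.14, adjusted p = 0.00331). Nr4a1 changed by -1.31 (SE 0.24) and -0.01 (SE 0.13) (difference -1.28, SE 0.19, adjusted p = 0.00331). Klf9, Per1 and Cxcl12 showed no such difference that passed the test, with -0.18, SE 0.13, adjusted p = 0.713 for Klf9, -0.41, SE 0.16, adjusted p = 0.352 for Per1 and 0.05, SE 0.12, adjusted p = 0.95 for Cxcl12. Cxcl12 rose in Dpp4+ Pi16+ cells as well, by 0.77 (SE 0.14). For Fabp4 and Cd36 the changes were 0.89 (SE 0.22) and 0.51 (SE 0.25) in Dpp4+ Pi16+ cells, and the differences to F3+ Gdf10+ cells did not pass the test.

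Against Icam1+ Col15a1+ cells, 5 of 9823 genes (0.0509%) changed differently: Hba-a1, Hba-a2, Hbb-bs, Hbb-bt and Postn. The first 4 are hemoglobin genes of red blood cells. Hbb-bs was at 5.95, 163, 641 and 25.3 CPM in Ad-Lib against 16.9, 10.6, 20.1 and 25.8 CPM in TAN in F3+ Gdf10+ cells and at 6.51, 6.35, 20.96 and 16.4 CPM in Ad-Lib against 20.2, 529, 17.9 and 36.4 CPM in TAN in Icam1+ Col15a1+ cells, so Ad-Lib 3 and Ad-Lib 5 were high in the first and TAN 4 in the second. Without TAN 4, Hba-a1, Hba-a2 and Hbb-bt lost their call (adjusted p = 0.508, 0.406 and 0.452 by edgeR), as did Hbb-bt without Ad-Lib 5 (adjusted p = 0.380), and the count of genes was 3. Postn was at 25.6, 40.6, 28.5 and 46.6 CPM in Ad-Lib against 46.6, 31.7, 28.7 and 41.2 CPM in TAN in F3+ Gdf10+ cells and at 23.9, 32.8, 8.20 and 75.2 CPM in Ad-Lib against 108, 66.2, 53.8 and 209 CPM in TAN in Icam1+ Col15a1+ cells, where TAN 8 stood highest, and lost its call without that library (adjusted p = 0.370 by edgeR). The count was 8, 14 and 19 without Ad-Lib 3, Ad-Lib 7 and TAN 2. At an unadjusted p under 0.05 there were 544 genes. For the genes named above the changes in Icam1+ Col15a1+ cells were 1.94 (SE 0.21) for Fabp4, 2.15 (SE 0.22) for Cd36, -1.62 (SE 0.20) for Mt2, -0.98 (SE 0.13) for Nfkbiz and -1.66 (SE 0.30) for Col6a6, each called in those cells and none told apart from the change in F3+ Gdf10+ cells. Fmod changed by -0.83 (SE 0.40) there, which was not called, and the difference was not called either. In Icam1+ Col15a1+ cells, 10 of 14 glucocorticoid-responsive genes were called lower (median -0.77), Zbtb16, Fkbp5, Sgk1, Dusp1 and Sult1e1 among them, as were 7 of 17 immediate early genes (median -0.63), where 0.944% of all genes tested in those cells were. None of these genes was called for a difference between the changes in the 2 classes.

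**Figure D5:**
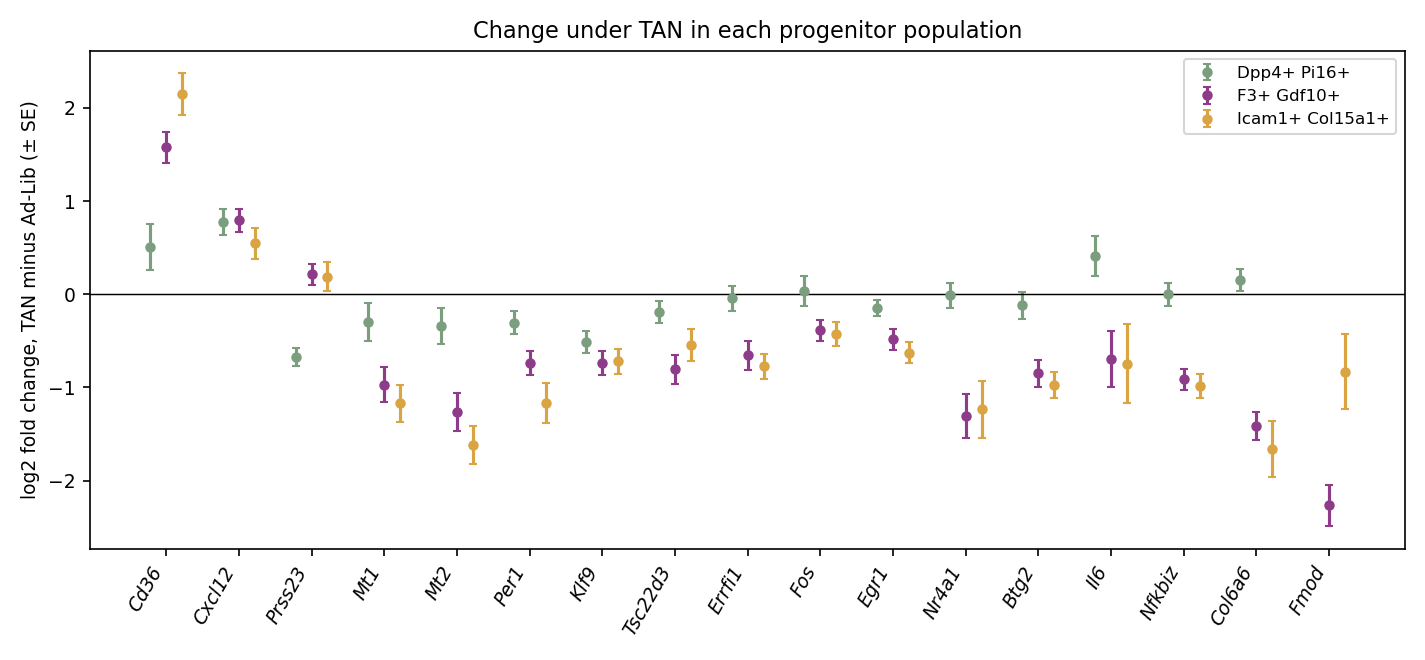
Log2 fold change, TAN minus Ad-Lib (± SE), of named genes in Dpp4+ Pi16+, F3+ Gdf10+ and Icam1+ Col15a1+ progenitors; Fmod was too low to test in Dpp4+ Pi16+ cells. From Mt1 to Col6a6 the F3+ Gdf10+ and Icam1+ Col15a1+ points lie below the line, whereas the Dpp4+ Pi16+ points of Nr4a1 and Col6a6 lie at -0.01 and 0.15.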

How the data were processed

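Each sample was the stromal vascular fraction of the inguinal fat pad, captured in droplets with a barcoded library kit and deposited by the authors as raw counts of UMIs per gene and barcode. The file headers name Cell Ranger 6.0.1 and the submitters' processing notes Cell Ranger 3.0.2 and Seurat, on mm10 (GRCm38). The tables hold 32285 gene identifiers, of which 32235 matched GENCODE M21, the source of the coordinates. Cells were kept by the limits given in the report. Doublets were not removed, nor do the methods of the study mention it. Any pair of libraries shared at most 16 barcodes. Within each library the cells of a class were summed, and edgeR 4.0.16 (R 4.3.3) was run with TMM scaling, its filter on low counts and the quasi-likelihood test, on 8 libraries. Comparisons of classes kept the library as a block, and differences of feeding changes were tested as the interaction. The library was the replicate throughout, and the study treats the 4 libraries of a group as separate animals, though the labels do not say so. The feeding fits met the same threshold as the class fits, an adjusted p under 0.05 and 1.5-fold. Shares were compared with exact permutation tests (scipy 1.17.1). Intervals are 95% Clopper-Pearson and cover counting error only. For bulk sums, fewer transcripts per cell and a changed mix of cells within the class cannot be told apart.

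Named genes were, for feeding, the 12 higher and 12 lower with the smallest adjusted p whose libraries did not overlap; for classes, up to 12 higher and 8 lower than in both neighbours at 50 CPM or more, by the smaller of their 2 log2 differences; for interactions, the 4 smallest adjusted p; for Gdf10-only against F3-only, 6 in each direction; and genes of the gates and lists. The cells and lists were chosen with earlier results of these data known, some other genes were named after their values were seen, and lists are described by counts and medians. Some results for the complement list are not reported here. On simulated counts with known changes, the feeding test recovered 35.8%, 91.0% and 100% of genes changed 1.5-fold, 2-fold and 4-fold. Changes were placed only in genes above a low mean level, so these rates do not cover scarcer genes. Alternatives were DESeq2 1.42.0, RLE scaling, no filter on low counts, no minimum fold, other limits on Gdf10 and F3 UMIs, thinning to 5000 UMIs per cell, leaving out cells over 20000 UMIs, a mitochondrial limit of 20%, leaving out each library and, added after seeing the data, a term for library numbers 1 to 4 and 5 to 8.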

Additional observations from a re-analysis of the deposited data

Results flagged for a closer look

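Within groups of 4 libraries, 7 of 56 sets of values examined held 1 library far from the other 3 by Dixon's criterion, which chance meets in about 1 of 20 sets. Ad-Lib 3 had the low share of all cells, 8.18% against 11.999% to 12.8%, and Ad-Lib 5 the high share of stromal cells, 40.8% against 31.2% to 32.2%. Ad-Lib 5 also had the deepest F3+ Gdf10+ cells, with a median of 11660.0 UMIs against 10466 to 10513. Among named genes, Ad-Lib 3 was high for Fmod (27.7 CPM, against 20.03 to 21.1 CPM in the other 3). Ad-Lib 7 was high for Nfkbiz (294 CPM, against 215 to 227 CPM in the other 3). Ad-Lib 5 was high for Pla1a (145 CPM, against 101 to 107 CPM in the other 3). TAN 2 was low for Phlda1 (144 CPM, against 186 to 191 CPM in the other 3). Fmod, Nfkbiz, Pla1a and Phlda1 kept their call without each of those libraries.

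The feeding change differed between classes for the genes with the smallest adjusted p in the interaction test of edgeR. Against Dpp4+ Pi16+ cells, the log2 change in F3+ Gdf10+ cells differed by -1.55 for Col6a6, -0.74 for Btg2, 0.88 for Prss23 and -1.11 for Il6, and each kept its call in all 8 fits that left out 1 library. Against Icam1+ Col15a1+ cells, it differed by -6.09 for Hbb-bs, -7.13 for Hba-a1, -6.51 for Hba-a2 and -6.28 for Hbb-bt, of which Hba-a1, Hba-a2 and Hbb-bt lost their call without TAN 4.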

How the results depend on the processing

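Among the 24 genes the naming rule gave for feeding, the 14 against both neighbours, the 12 for Gdf10-only against F3-only cells and the 4 of each interaction, no direction turned under an alternative that gave a value, and genes named from the gates and lists were not followed through these settings beyond leaving out 1 library. Without the filter on low counts, the calls rose from 122 to 271 for feeding, from 147 to 267 against Icam1+ Col15a1+ cells, and from 46 to 276 and 5 to 34 for the interactions with Dpp4+ Pi16+ and Icam1+ Col15a1+ cells. Without a minimum fold change, 189 genes were called for feeding (55 higher and 134 lower). Thinning each cell to 5000 UMIs left 94 genes against Icam1+ Col15a1+ cells, 80 of them among the 147. DESeq2 called 132 genes for feeding, RLE scaling 121, a limit of 5 or 2 Gdf10 and F3 UMIs 93 or 144, and thinning 117, of which 111, 121, 78, 106 and 85 were among the 122. With library numbers 1 to 4 and 5 to 8 as a term, added after seeing the data, 142 genes were called for feeding, including all 122, and 85 and 6 for the interactions with Dpp4+ Pi16+ and Icam1+ Col15a1+ cells, including all 46 and all 5. Leaving out 1 library at a time gave 55 to 152 genes for feeding, 2612 to 2769 against Dpp4+ Pi16+ cells, 133 to 163 against Icam1+ Col15a1+ cells, 438 to 538 for Gdf10-only against F3-only cells, and 27 to 77 and 3 to 19 for the interactions. The difference in share of all cells was -5.57 percentage points, -4.82 with Cd3 and Cd79 droplets left out (exact permutation p = 0.0286), and -6.63 to -4.63 with 1 library left out; that in stromal share was -6.33, -2.65 after thinning, and -8.66 to -3.88 with 1 library left out. Scaling did not turn the direction of the glucocorticoid, immediate early, collagen or ribosomal lists. Depth limits genes at a few CPM, and the interaction test recovered 14.9% (Dpp4+ Pi16+) and 8.96% (Icam1+ Col15a1+) of genes simulated with a 1.5-fold difference. The scarcest genes were left out of those simulated differences. No paired analysis was possible because the groups share no replicate numbers. The cause of these differences was not tested.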
